A study of Caenorhabditis elegans with 2 samples.

Results

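The 346 genes of biotype snoRNA on the nuclear chromosomes of the Ensembl WBcel235 annotation were examined for binding of CEH-44 in Caenorhabditis elegans. CEH-44 is a transcription factor with CUT domains and a homeodomain. They were 346 of the 46890 annotated genes of those chromosomes. Chromatin came from whole larvae of strain RW12327 at the fourth larval stage, 49 hours old and synchronised through starved first-stage larvae. In this strain CRISPR had placed a TY1::EGFP::3xFLAG tag at the endogenous ceh-44 gene on chromosome III, and the tagged protein was precipitated with an antibody against GFP (ChIP-seq). There were 2 biological replicates of this 1 group, and nothing in the labels says how many animals each held or which cells carried the bound chromatin. An untagged or input library was not analysed here.

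A snoRNA gene was called bound when the summit of a peak in the larger of 2 series lists, which both replicates entered, lay inside it or within 250 bp of it. By this rule 70 snoRNA genes were bound and 276 were not. The genes were split by position. Of the 346, 183 lay inside a protein-coding gene on the same strand and are called nested here. Of the nested genes, 145 lay wholly in an intron and 38 overlapped an annotated exon. The other 163 comprised 124 between coding genes, 33 inside a coding gene on the opposite strand and 6 that overlapped a coding gene in part.

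Small nucleolar RNAs guide the chemical modification of ribosomal and spliceosomal RNA. Those of the C/D type carry a C box near the 5′ end and a D box near the 3′ end and direct methylation with the protein fibrillarin, and those of the H/ACA type direct pseudouridylation with dyskerin. A snoRNA gene inside an intron may be cut out of the host transcript or be transcribed from a promoter of its own. RNA polymerase III transcribes tRNA genes from 2 internal elements, box A and box B, which transcription factor TFIIIC recognises, and it stops at a run of T. Genes of spliceosomal snRNAs instead carry a proximal sequence element upstream of the start. The starts used here are the annotated 5′ ends of the RNAs and not mapped sites of initiation.

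Either of 2 word pairs stood in the sequence before 35 of the 70 bound genes. The other 35 held neither, and the pairs also stood before 4 and 18 unbound genes. Examples are printed here because part of the results turns on them. In the first set, a box A-like word (TGGNNNA) was followed, 20 to 80 bp further from start to start, by a box B-like word (GTTCNANNC). Each sequence runs 5′ to 3′ on the gene's strand, from 100 bp before the annotated start to the tenth base of the gene, on WBcel235 (ce11). The capitals mark the words of the pair nearest the gene. They come from nested and other bound genes with this pair, 2 of each, taken by signal.
C51F7.3 (chrV:12303608-12303717, plus strand): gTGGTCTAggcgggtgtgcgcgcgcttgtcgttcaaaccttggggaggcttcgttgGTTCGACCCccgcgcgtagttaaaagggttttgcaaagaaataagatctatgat
Y43F8C.22 (chrV:19643178-19643287, minus strand): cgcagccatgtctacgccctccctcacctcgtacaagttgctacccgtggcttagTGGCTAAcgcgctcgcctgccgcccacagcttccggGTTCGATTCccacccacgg
W03C9.9 (chrII:11960798-11960907, plus strand): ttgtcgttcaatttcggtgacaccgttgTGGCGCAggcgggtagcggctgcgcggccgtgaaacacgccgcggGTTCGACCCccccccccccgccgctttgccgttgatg
T03F7.8 (chrV:11314158-11314267, plus strand): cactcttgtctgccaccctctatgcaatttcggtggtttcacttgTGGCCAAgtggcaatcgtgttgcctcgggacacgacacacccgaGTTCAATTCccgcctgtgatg
C51F7.3 and Y43F8C.22 are nested, in frm-7 and Y43F8C.7. Most of the sequence printed for C51F7.3 belongs to C51F7.4, another bound snoRNA gene on the same strand, and both capitalised words lie inside C51F7.4. W03C9.9 lies between coding genes, and T03F7.8 lies inside a coding gene on the opposite strand.

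In the second set the words AACNCG and TGTCNG stood 6 to 20 bp apart from start to start. Capitals again mark the pair, in bound genes taken in the same way. Among them Y48A6C.10 had a series signal of 95.9, below the median of bound other genes, and was absent from replicate 1's own list.
T06D8.11 (chrII:11224082-11224191, plus strand): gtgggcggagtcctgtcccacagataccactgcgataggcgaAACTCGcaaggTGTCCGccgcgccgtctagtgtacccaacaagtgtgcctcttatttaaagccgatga
ZK994.7 (chrV:8500479-8500588, plus strand): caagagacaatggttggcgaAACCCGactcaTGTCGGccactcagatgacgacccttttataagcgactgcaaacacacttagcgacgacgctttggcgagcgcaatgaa
T08B6.64 (chrIV:4880841-4880950, minus strand): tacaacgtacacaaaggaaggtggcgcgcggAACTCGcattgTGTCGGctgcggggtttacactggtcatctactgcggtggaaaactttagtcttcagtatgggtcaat
Y48A6C.10 (chrIII:11118261-11118370, plus strand): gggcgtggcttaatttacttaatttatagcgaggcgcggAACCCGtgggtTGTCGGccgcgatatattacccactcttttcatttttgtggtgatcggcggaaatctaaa
T06D8.11 and ZK994.7 are nested, in plpr-1 and pxn-1. T08B6.64 lies between coding genes and Y48A6C.10 inside a coding gene on the opposite strand. For contrast, the next sequences come from unbound nested genes with the same pairs. ZK546.18, in mdt-4, has the box A-like and box B-like words and no candidate peak in the ranked series list. C02C6.13, in lron-3, has the second pair and the lowest candidate signal of the unbound genes with it.
ZK546.18 (chrII:4942510-4942619, minus strand): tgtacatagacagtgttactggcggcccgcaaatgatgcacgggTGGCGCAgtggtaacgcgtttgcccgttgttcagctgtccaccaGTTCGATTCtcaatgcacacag
C02C6.13 (chrX:15552478-15552587, minus strand): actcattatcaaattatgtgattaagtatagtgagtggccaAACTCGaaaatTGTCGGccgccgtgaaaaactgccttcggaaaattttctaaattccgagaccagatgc

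Nested snoRNA genes were bound less often than the others. In the larger series list 29 of 183 nested genes were bound (15.8%, exact 95% binomial interval 10.9 to 22.0%), against 41 of 163 other genes (25.2%, 18.7 to 32.5%). Over all snoRNA genes the share was 20.2%, and the same rule called 3.25% of all annotated genes. The odds ratio of nested against other genes was 0.561 (95% interval 0.317 to 0.985, two-sided Fisher's exact test p = 0.0330). The call was lost when the 38 genes that overlap an exon were moved to the other side. Then 26 of 145 genes wholly in an intron were bound (17.9%), against 44 of 201 (21.9%), with an odds ratio of 0.780 (0.435 to 1.38, Fisher's exact p = 0.417). The exon-overlapping genes themselves were bound in 3 of 38 cases (7.89%, 1.66 to 21.4%). Of the 33 genes inside a coding gene on the opposite strand 10 were bound (30.3%, 15.6 to 48.7%), and of the 124 between coding genes 28 were (22.6%, 15.6 to 31.0%). The test treats genes as independent, although all share the same 2 replicates.

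**Figure D1:**
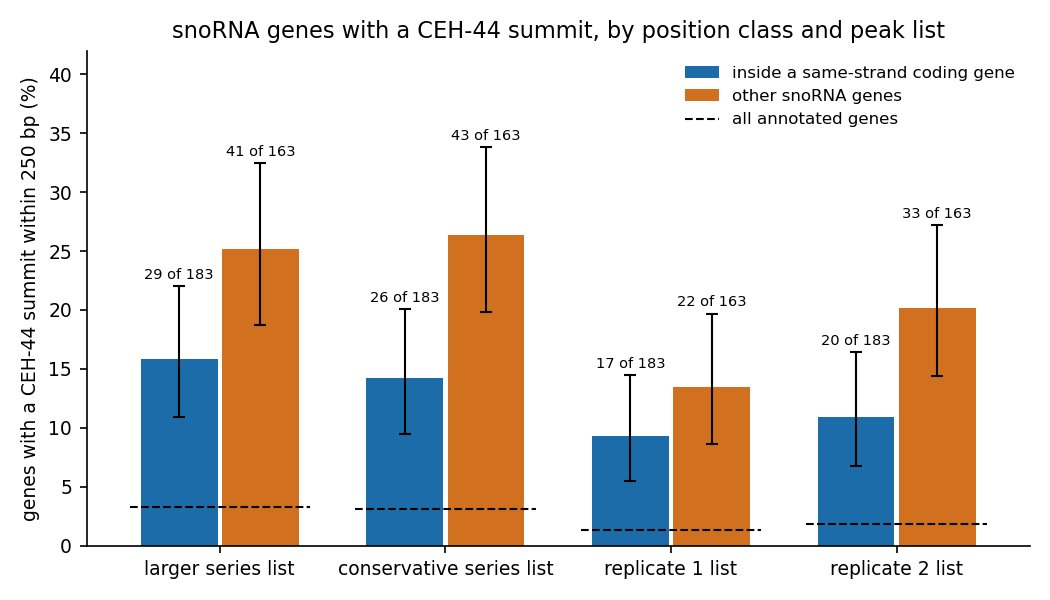
Share of snoRNA genes with a CEH-44 summit within 250 bp (vertical axis, percent) in 4 deposited peak lists, for genes inside a same-strand coding gene (blue) and other snoRNA genes (orange). Bars are shares, whiskers exact 95% binomial intervals, and dashed lines the share over all annotated genes. The nested share is the lower of the pair in each list, 15.8% against 25.2% in the larger series list, and the whiskers of each pair overlap.

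The direction was the same in every list, but the replicates differed in whether the difference passed. In the conservative series list 26 nested genes were bound (14.2%), against 43 other genes (26.4%), with 3.14% of all genes called (odds ratio 0.463, 0.258 to 0.820, Fisher's exact p = 0.00675). In replicate 1's own list 17 nested genes were bound (9.29%), against 22 others (13.5%), with 1.33% of all genes called. There the odds ratio was 0.657 (0.314 to 1.35, Fisher's exact p = 0.236). In replicate 2's own list 20 nested genes (10.9%) stood against 33 others (20.2%), with 1.87% of all genes called (odds ratio 0.484, 0.251 to 0.916, Fisher's exact p = 0.0173).

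Within chromosomes the order was not uniform. Nested genes had the lower share on chromosomes I, II, III and IV, for example 4 of 35 (11.4%), against 11 of 36 (30.6%) on chromosome II. On chromosome V it was the higher one, with 12 of 36 (33.3%, 18.6 to 51.0%), against 4 of 19 (21.1%, 6.05 to 45.6%). The X chromosome held 33 snoRNA genes, of which C53B7.8, a gene of 71 bp between coding genes, was the bound one (3.03%, 0.0767 to 15.8%), against 69 of 313 on the autosomes (22.0%, 17.6 to 27.1%). C53B7.8 had a series signal of 91.6, a signal of 55.6 in replicate 2's own list and no peak in that of replicate 1. The share of all annotated genes bound was not computed by chromosome. Whether the low share on the X chromosome is particular to snoRNA genes was therefore not tested.

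Short snoRNA genes were bound most often. Of the 56 genes of 80 bp or less 31 were bound (55.4%, 41.5 to 68.7%), against 6 of 56 from 81 to 110 bp (10.7%, 4.03 to 21.9%) and 33 of 234 longer ones (14.1%, 9.91 to 19.2%). Among the short genes 10 of 25 nested ones were bound (40%, 21.1 to 61.3%), against 21 of 31 others (67.7%, 48.6 to 83.3%). Above 110 bp the classes lay close together, with 17 of 122 nested genes bound (13.9%) and 16 of 112 others (14.3%). For genes over 80 bp as a whole the odds ratio was 0.766 (0.367 to 1.59, Fisher's exact p = 0.491), and for the short ones it was 0.324 (0.0915 to 1.08, Fisher's exact p = 0.0584). These length classes were chosen after the data had been seen.

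Letters of the C and D boxes stood at the ends of a larger share of the bound genes, which were also shorter. The C box letters TGATGA stood in the first 25 bases of 10 of 70 bound genes (14.3%), against 11 of 276 unbound genes (3.99%), read on the gene's strand. The D box letters CTGA stood in the last 25 bases of 33 bound genes (47.1%, 35.1 to 59.4%), against 52 unbound ones (18.8%, 14.4 to 24.0%). Of the 15 genes with both words 8 were bound, and of the 255 with neither word 35 were (13.7%, 9.75 to 18.6%). At 80 bp or less the contrast was small, with 5 of 9 genes with both words bound (55.6%, 21.2 to 86.3%), against 9 of 20 with neither (45.0%, 23.1 to 68.5%). No test of the boxes was made. An exact word misses boxes with a changed base, so a gene without it is not thereby of another type. W03C9.9, a strongly bound gene of 62 bp with both words, reads as follows, with the C and D box words in capitals.
W03C9.9 (chrII:11960898-11960959, plus strand): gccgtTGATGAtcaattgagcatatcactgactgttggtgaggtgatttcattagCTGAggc

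CEH-44 summits lay just before the annotated start in both classes. The median summit stood at -17 bp from the start in nested genes (quartiles -46.0 and -2, n = 29) and at -34 bp in the others (quartiles -47.0 and -7.00, n = 41). Of the 70 nearest summits 54 lay upstream of the start (77.1%), 50 of them within 70 bp of it, 11 lay inside the gene and 5 beyond its end. In the replicates' own lists the medians were -33.0 bp in replicate 1 and -22.5 bp in replicate 2 for nested genes, and -42.0 and -36.0 bp for the others. The quartile ranges of the classes overlap, and no test of the positions was made.

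**Figure D2:**
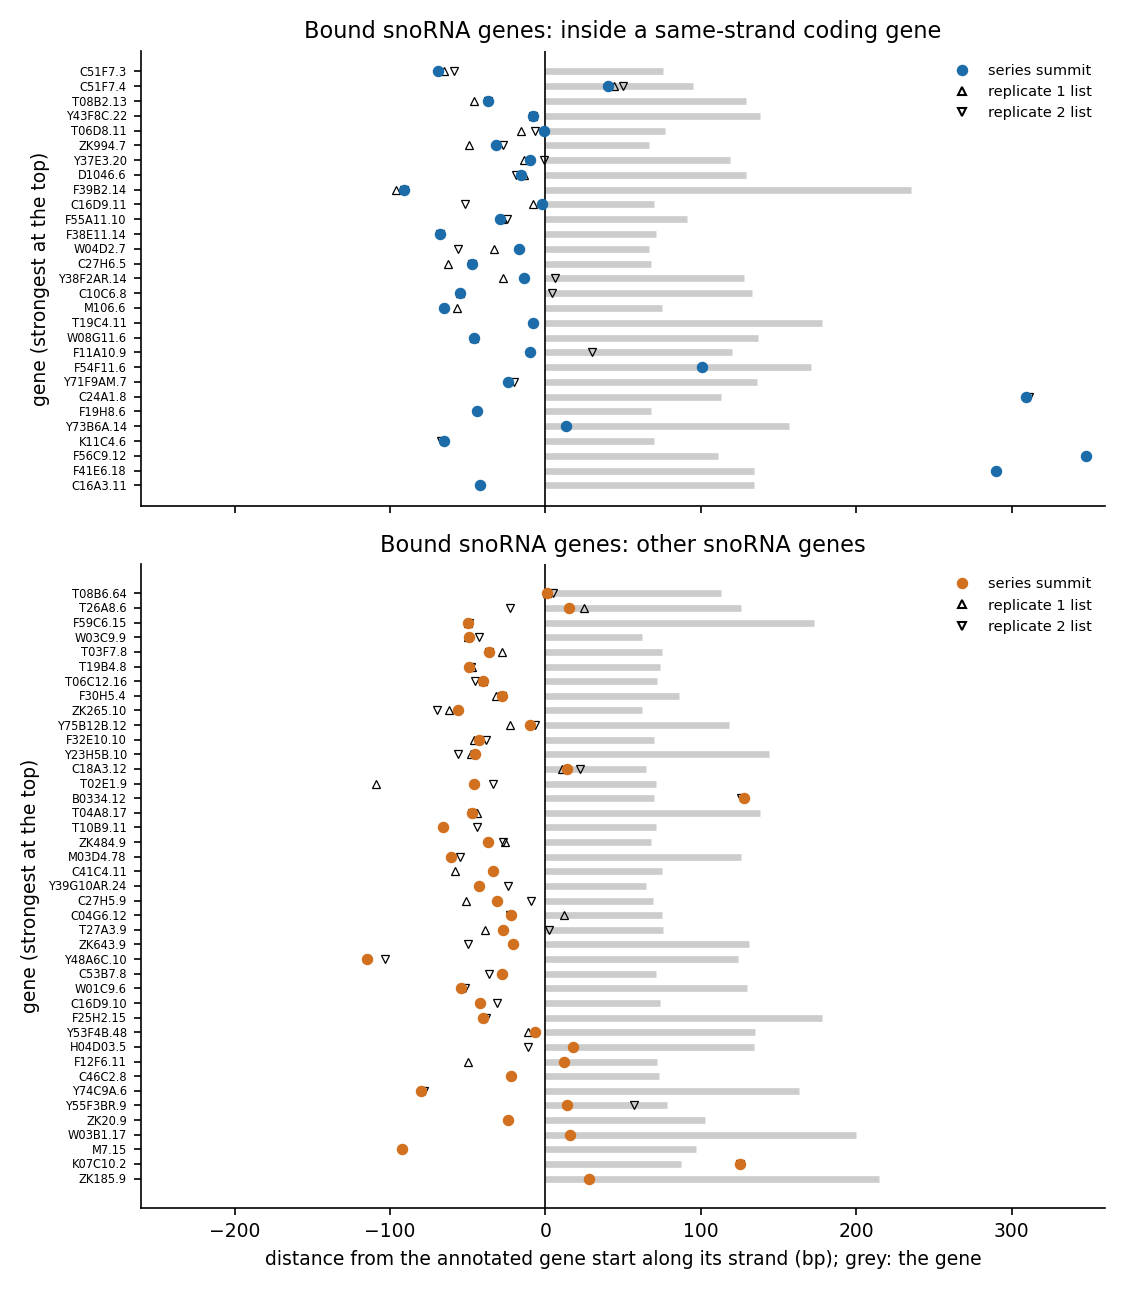
Position of the CEH-44 summit at each of the 70 bound snoRNA genes, in bp from the annotated start along the gene's strand (horizontal axis), with genes inside a same-strand coding gene above and other snoRNA genes below, ordered by signal. Filled circles are series summits, open triangles the summits of the replicates' own lists, and grey bars the genes. Of the series summits, 54 stand left of the start.

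Few genes lay near the limit of 250 bp, but the comparison of the classes depended on it. The bound genes with the farthest summits were all nested. F56C9.12, in gsp-2, had its summit 238 bp past its end, C24A1.8, in elf-1, 197 bp past it, and F41E6.18, in smk-1, 157 bp past it. Just outside, Y43B11AR.7, in rps-4, had the closest summit at 280 bp, C27H5.10 at 310 bp and F20D12.10 at 319 bp. With a distance of 100 bp, 26 nested and 40 other genes were bound. With 500 bp they were 34 and 44, and the difference no longer passed (odds ratio 0.618, 0.359 to 1.06, Fisher's exact p = 0.0714).

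The strongest snoRNA peaks were among the strongest of the whole list. Of its 1027 peaks, 69 (6.72%) had their summit within 250 bp of a snoRNA gene, 3 of them among the 10 strongest and 25 among the 100 strongest. The deposited signal of a peak has no stated scale and was compared within a list. Its median was 101 at bound nested genes and 102 at bound other genes. The list's own median was 76.0, and the weakest bound genes had 57.3.

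T08B6.64, on chromosome IV, had the highest signal of all peaks, 568 in the series list, with 243 in replicate 1's list and 318 in replicate 2's. T26A8.6, also on chromosome IV, came second with 412, 172 and 241. Their summits stood at 1 and 15 bp from the start, so they belong to the 11 inside their genes. For T26A8.6 the replicates' own summits stood on either side of the start, at 25 bp in replicate 1 and -23 bp in replicate 2. The pair shares a stretch of 63 bp, given in capitals below, in sequences that run from 20 bp before the start to the end of the gene. The upstream sequences differ, and T26A8.6 holds neither word pair there.
T08B6.64 (chrIV:4880738-4880870, minus strand): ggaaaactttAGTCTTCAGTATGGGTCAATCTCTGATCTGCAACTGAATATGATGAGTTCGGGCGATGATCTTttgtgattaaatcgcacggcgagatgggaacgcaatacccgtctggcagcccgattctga
T26A8.6 (chrIV:8428614-8428759, minus strand): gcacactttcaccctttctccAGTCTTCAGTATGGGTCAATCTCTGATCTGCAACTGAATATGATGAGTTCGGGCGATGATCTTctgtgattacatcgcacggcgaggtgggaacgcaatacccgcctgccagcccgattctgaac
Both series summits lie inside the shared stretch, although replicate 2's own summit at T26A8.6, at -23 bp, lies outside it. Reads from inside the shared stretch match both genes, and how the signal divides between them was not tested. Of the 30-base words of T08B6.64, 28.6% occur more than once in the genome, and of T26A8.6, 35.1%.

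Among the genes outside a same-strand host, W03C9.9 had 234 in the series list, 118 in replicate 1's list and 115 in that of replicate 2, with its summit at -49 bp. T03F7.8 had 232, with 104 and 122, and its summit at -36 bp. T06C12.16, a gene of 72 bp on chromosome V with neither word pair, had 181, with 81.4 and 93.3, and a summit at -40 bp. In these 3 genes the summits of the replicates lay 5 to 8 bp apart, from -50 to -28 bp. C18A3.12 was an exception in position, with a series signal of 136 and its summit at 14 bp, inside the gene, in the series list and at 11 and 22 bp in the replicates' lists. B0334.12 and K07C10.2 had theirs beyond their ends, at 128 and 125 bp from the start. In both, replicate 2's own list placed the summit at nearly the same point, at 126 and 125 bp, and replicate 1's list held no peak there.

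Nested genes with the highest signals sat in host genes of varied function. C51F7.3 and C51F7.4, in frm-7, shared 1 peak with a series signal of 199, and 91.2 in replicate 1 and 110 in replicate 2. Its summit lay at -69 bp from the start of C51F7.3 and at 40 bp inside C51F7.4, so the rule calls both genes from a single summit. T08B2.13, in fars-1, a phenylalanyl-tRNA synthetase gene, had 178, with 74.8 and 96.7. Y43F8C.22 had 172, with 68.8 and 102, and its summit stood at -8 bp in the series list and in both replicates' lists. T06D8.11 had 166, with 77.9 and 84.1, and a summit at -1 bp. ZK994.7, in pxn-1, a peroxidasin gene, had 161, with 80 and 83.2. These 6 genes were in both replicates' own lists. F38E11.14, in cng-3, a cyclic nucleotide-gated channel gene, had 123 in the series list and 84.0 in replicate 2, and was absent from replicate 1's own list, where its best candidate had 37.3.

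The replicates' own lists repeated part of the bound genes. Of the 70, 34 had a summit within 250 bp in both replicates' own lists (48.6%, 36.4 to 60.8%), 5 in replicate 1's alone, 19 in replicate 2's alone and 12 in neither (17.1%, 9.18 to 28.0%). Nested genes were in both lists in 15 of 29 cases (51.7%, 32.5 to 70.6%), against 19 of 41 others (46.3%, 30.7 to 62.6%). In neither list were 7 nested genes (24.1%), among them C16A3.11 in the ribosomal protein gene rps-13, against 5 others (12.2%). Where both lists held the gene, the replicates' summits lay a median of 8 bp apart, 24 of 34 pairs within 20 bp and the farthest 75 bp. The higher signal was replicate 2's in 25 of the 34, but the lists were made separately and the read depths are unknown. No unbound gene had a summit in either replicate's own list.

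**Figure D3:**
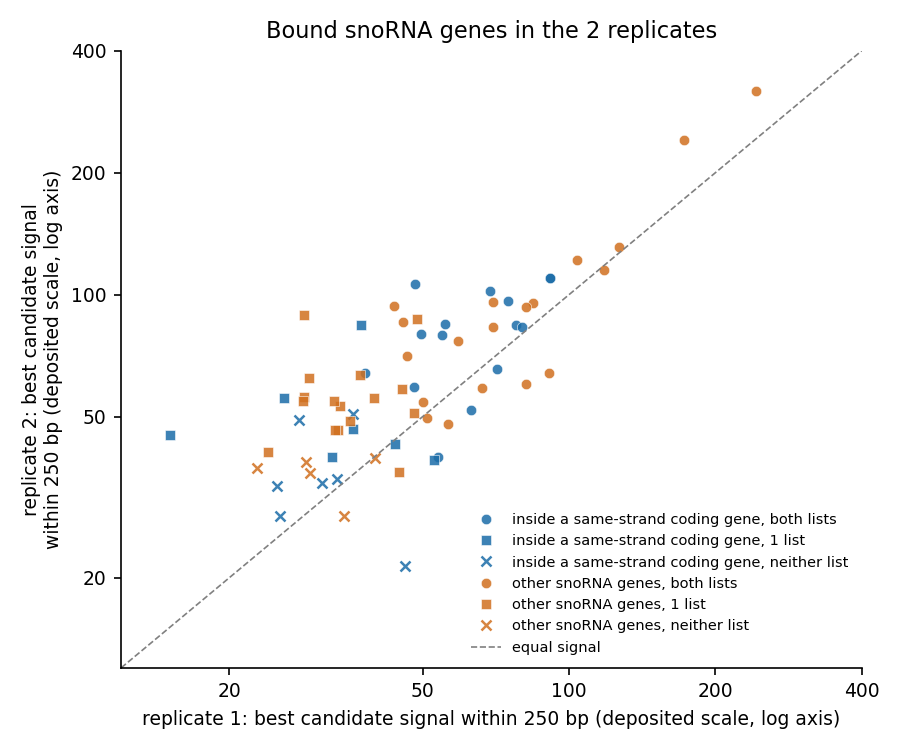
Best ranked candidate signal within 250 bp of each bound snoRNA gene in replicate 1 (horizontal) and replicate 2 (vertical), both on the deposited scale and log axes, for the 69 genes with a candidate in both. Colour gives the position class, the marker whether the gene was in both, 1 or neither of the replicates' own thresholded lists, and the dashed line equal signal. The 2 points at the upper right are T08B6.64 (243 and 318) and T26A8.6 (172 and 241).

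Word pairs like those printed above stood before 35 of the 70 bound genes. The box A-like and box B-like pair was found in the 100 bp before 19 bound genes (27.1%, 17.2 to 39.1%), against 4 unbound ones (1.45%, 0.396 to 3.67%). The same search found it before 14 of 19973 coding genes (0.0701%), before 0 of 129 snRNA genes (exact upper bound 2.82%) and before 4 of 261 miRNA genes. Read on the opposite strand of the same windows, the pair stood before 0 bound and 1 unbound gene. The words were spelled after the upstream sequences of the bound genes had been read, so these counts describe the genes and are not a test. None of the bound or unbound genes with the pair had an annotated tRNA gene within 250 bp. Another annotated noncoding RNA gene overlapped the 100 bp before 7 of the 19 bound genes and 0 of the 4 unbound ones. A pseudogene did so at 1 bound and 1 unbound gene. With neither pair, a noncoding RNA gene overlapped the window of 7 of 35 bound and 23 of 254 unbound genes.

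The pair had a set place. In bound genes the box A-like word began at a median of -58 bp, the box B-like word at -14 bp, and the words stood a median of 44 bp apart, with a range of 35 to 55 bp although up to 80 bp was searched. In the 4 unbound genes the medians were -58 bp, -14.5 bp and 43.5 bp. The summit lay on or between the words in 15 of the 19 bound genes, at a median of 23 bp after the first base of the box A-like word and of -37 bp from the gene start. Of the 23 genes with the pair, bound shares were 5 of 7 in nested genes (71.4%, 29.0 to 96.3%) and 14 of 16 in others (87.5%, 61.7 to 98.4%). All 13 of them that were 80 bp or less were bound, against 4 of the 8 longer than 110 bp. A run of TTTT followed within 30 bp of the end in 17 of the 19 bound genes with the pair and in all 4 unbound ones.

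The second pair, AACNCG and TGTCNG, stood before 16 bound genes (22.9%, 13.7 to 34.4%), against 18 unbound ones (6.52%, 3.91 to 10.1%), and before 17 of 19973 coding genes (0.0851%). On the opposite strand it stood before 0 bound genes and 1 unbound one. It was also found before 21 of 129 snRNA genes (16.3%), of which 11 were among the 33 bound and 10 among the 96 unbound snRNA genes. The distance between the words was 11 bp in all 16 bound snoRNA genes, in 17 of the 18 unbound ones and in all 21 snRNA genes. The first word began at a median of -59.5 bp in the bound genes, -59 bp in the unbound ones and -59 bp in the snRNA genes. It did not overlap the box A-like and box B-like pair in membership, since no gene held both. Another annotated noncoding RNA gene overlapped the 100 bp before 5 of the 16 bound and 2 of the 18 unbound snoRNA genes with the second pair.

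At 13 of the 16 bound genes with the second pair the summit lay downstream of both words. It lay between the words in 1 and upstream of both in 2, Y74C9A.6 and Y48A6C.10. The median summit stood at -9 bp from the gene start, 52 bp after the first base of the pair, with -5 bp in nested genes and -41.0 bp in others (n = 8 each). Of 12 nested genes with the second pair 8 were bound (66.7%, 34.9 to 90.1%), against 8 of 22 others (36.4%, 17.2 to 59.3%). The intervals overlap and no test was made. Over 20% of the 30-base words occur more than once in the genome in 1 of these nested genes and in 13 of the others. Without those, 7 of 11 nested genes were bound (63.6%, 30.8 to 89.1%), against 4 of 9 others (44.4%, 13.7 to 78.8%). The strongest of the nested ones were T06D8.11, ZK994.7, Y37E3.20 in pcyt-2.1 and C16D9.11 in rol-3, with series signals of 166, 161, 160 and 137. In replicate 1's own list 5 nested genes with the pair were bound, against 2 others, and in replicate 2's own list 5, against 7. The 3 genes with the pair on the X chromosome were unbound.

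**Figure D4:**
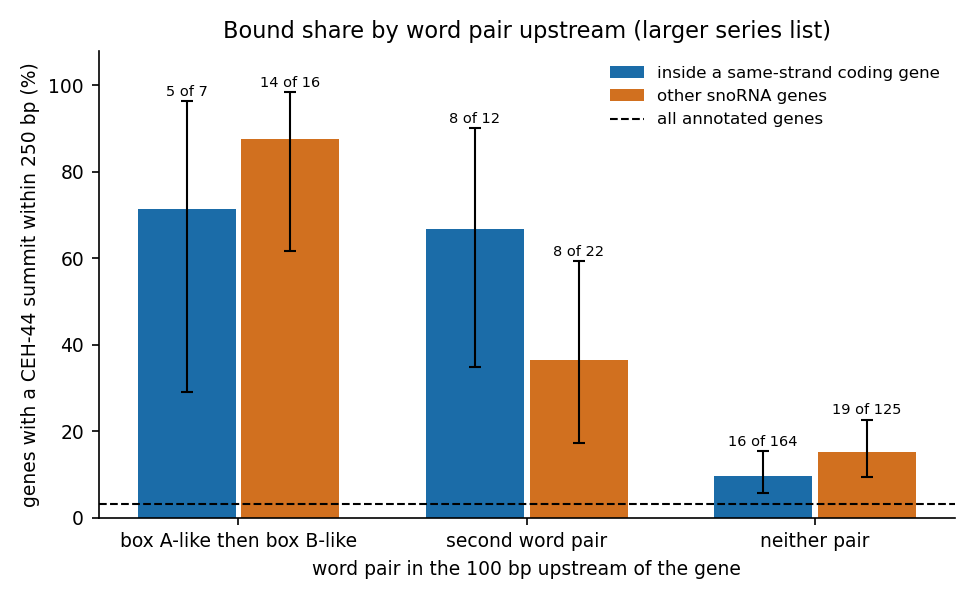
Share of snoRNA genes bound in the larger series list (vertical axis, percent), by the word pair in the 100 bp before the gene, for genes inside a same-strand coding gene (blue) and other snoRNA genes (orange). Whiskers are exact 95% binomial intervals, and the dashed line is the share over all annotated genes, 3.25%. With neither pair, 16 of 164 nested genes and 19 of 125 others were bound.

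Genes with neither pair were bound in 35 of 289 cases (12.1%, 8.58 to 16.4%), above the 3.25% of all genes. Nested ones reached 9.76% (5.68 to 15.4%), against 15.2% of the others (9.41 to 22.7%), with an odds ratio of 0.604 (0.276 to 1.30, Fisher's exact p = 0.203). Among them T26A8.6 had the highest signal, followed by C51F7.4, T06C12.16 and ZK265.10. The summit at C51F7.4 is the one it shares with C51F7.3, where it lies 30 bp after the first base of that gene's box A-like and box B-like pair. Both words of that pair lie inside C51F7.4 itself, which counts here because its own upstream window holds neither pair. Of these 35 genes, 4 had a coding gene start within 250 bp, and their summits lay upstream of the start in 26.

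Among unbound genes, the median candidate signal was higher with the second pair than with neither pair. Candidates of unbound genes are weaker than the peaks of bound ones by construction. The ranked series list holds 115557 candidates that need not have passed its threshold, and it gave a candidate within 250 bp of 218 of the 276 unbound genes. Candidate signal had a median of 42.5 at all 18 unbound genes with the second pair (range 13.0 to 74.9). Its summit stood at a median of -44.5 bp from the start, from -98 to 243 bp, and lay downstream of both words in 9, between them in 4 and upstream of both in 5. At the 197 unbound genes with neither pair and a candidate the median was 25.8. Both medians take the best candidate within 250 bp of each gene. Over all single ranked candidates the median was 18.6. A best value tends to be higher than a single one, so these measures are not alike. Of the 4 unbound genes with the box A-like and box B-like pair, 3 had candidates, with signals of 49.3, 32.7 and 12.8 and each summit downstream of both words. ZK546.18 had none in the series list, and 21.6 in replicate 1 and 24.9 in replicate 2.

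**Figure D5:**
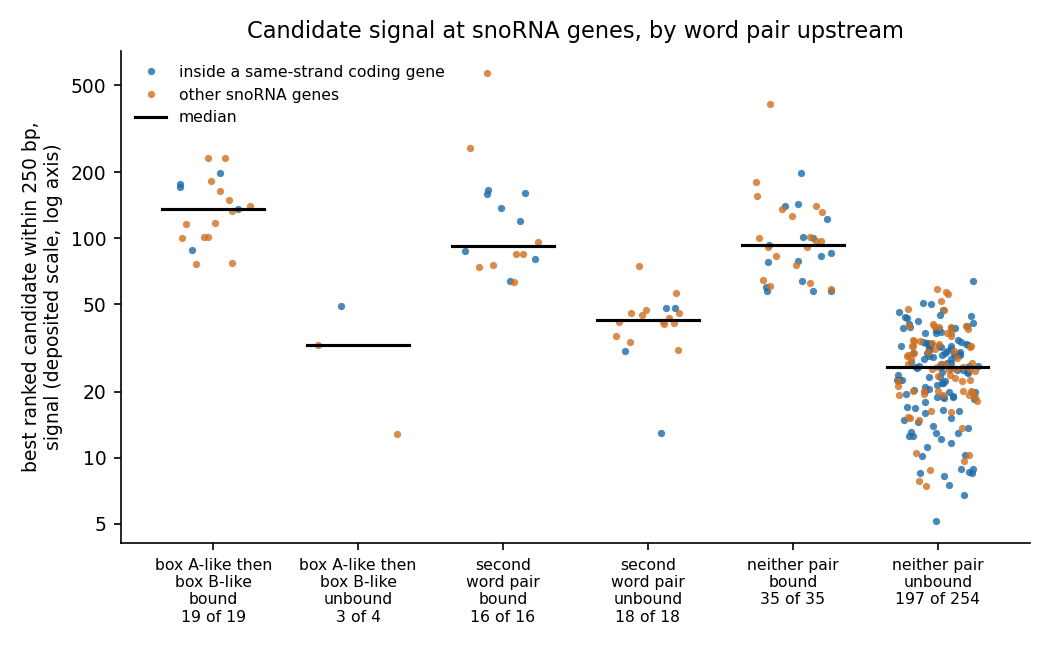
Signal of the best ranked candidate within 250 bp of each snoRNA gene in the series list (vertical axis, deposited scale, log axis), by word pair upstream and by whether the gene was bound. Points are genes, coloured by position class, black bars medians, and the numbers under the axis give the genes with a candidate. Bound genes sit higher by construction, and among unbound genes the median is 42.5 with the second pair and 25.8 with neither pair. Genes with repeated sequence are included.

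One unbound gene had a candidate that passed the value shared by the thresholded lists, a −log10 of the irreproducible discovery rate (IDR) of 2. WBGene00220185, a gene of 95 bp between coding genes on chromosome IV with the second pair, had a candidate of signal 74.9, rank 595 and −log10 IDR 2.69 that is absent from both series lists. Its candidates had signals of 32.0 in replicate 1 and 48.2 in replicate 2. C05D2.15, in madf-11, followed with 63.7 and a −log10 IDR of 1.77, and F09G2.14 with 59.1 and 1.71. F09G2.14 was in the conservative list, with a summit at -179 bp.

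Single words were searched as well. The box B core GTTCGANNC, sought on both strands of the 100 bp before the gene, stood before 13 bound genes (18.6%) and 5 unbound ones (1.81%), against 0.371% of coding genes. The box A core TGGCNNAG stood before 20 (28.6%) and 17 (6.16%), against 1.79% of coding genes. Both overlap the words of the first pair. ATCGAT, a word bound by the related mammalian protein CUX1, stood before 3 bound genes (4.29%) and 9 unbound ones (3.26%), against 4.85% of coding genes. ATCAAT stood before 1 (1.43%) and 18 (6.52%), against 12.1% of coding genes, TATAAA before 7 (10%) and 31 (11.2%), against 19.3%, and GAGAGA before 8 (11.4%) and 25 (9.06%), against 8.77%. TTTT within 30 bp after the end, on the gene's strand, followed 54 bound genes (77.1%, 65.6 to 86.3%) and 129 unbound ones (46.7%, 40.7 to 52.8%), against 49.4% of coding genes.

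A search over all words of 6 bases, ranked on chromosomes II, IV and X and read again on I, III and V, was led by GCGCAG. It stood before 11 of 32 bound genes (34.4%) and 3 of 131 unbound genes (2.29%) of the first 3 chromosomes, and before 6 of 38 (15.8%) and 2 of 145 (1.38%) of the second 3. GTTCGA, part of the box B core, kept its share on the second set, with 8 of 32 (25%) and 8 of 38 (21.1%) bound genes, against 3 of 131 (2.29%) and 5 of 145 (3.45%) unbound genes. The first 5 also held ACTCGC, with CTCGCG and the word TGGTTA. Their shares among bound genes were 21.9 to 25% on the first set and 7.89 to 10.5% on the second, and among unbound genes up to 1.53% and up to 4.14%.

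A CEH-44 summit at the host's own start was found for 1 host of bound nested genes. Among hosts of unbound ones the share was above that of coding genes in general. The 183 nested genes lay in 159 host genes, 28 of them with bound members and 131 with unbound ones, and no host held both. A summit from 1000 bp upstream to 200 bp downstream of the start was found at 1 of the 28 hosts of bound genes (3.57%, 0.0904 to 18.3%), at 20 of the 131 hosts of unbound ones (15.3%, 9.58 to 22.6%) and at 2.99% of all coding genes. The intervals of the 28 and the 131 hosts overlap, and no test of this difference was made. The 1 host was tmem-107, and it counts through the same summit by which its snoRNA gene F39B2.14 was called bound. The unbound side's hosts with such a summit included the ribosomal protein genes rpl-6, rpl-7, rpl-7A, rpl-15, rpl-24.1, rps-4 and rps-23 and the chaperone gene hsp-1. Of the 19 snoRNA genes in rps or rpl genes 1 was bound (5.26%, 0.133 to 26.0%), against 28 of the 164 in other hosts (17.1%, 11.7 to 23.7%). Bound nested genes lay a median of 3401 bp from the host's start, and unbound ones 1798 bp.

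Most bound nested genes were the lone snoRNA gene of their host. Of the 133 such genes 27 were bound (20.3%, 13.8 to 28.1%), against 2 of the 50 that share a host (4%, 0.488 to 13.7%). The 2 are C51F7.3 and C51F7.4 in frm-7, which share 1 summit. Of the 23 hosts with 2 or more snoRNA genes, the largest number was the 4 of nol-56, itself a core protein of C/D snoRNPs, and none of its 4 was bound.

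Protein genes of the snoRNPs and of the wider snoRNA pathway, listed by name, were bound in part. Of 11 such genes found in the annotation, 4 had a summit in the same promoter window, against 2.99% of coding genes. They were fib-1, which encodes fibrillarin (signal 97.0, summit at -79 bp), ruvb-1, an AAA ATPase of snoRNP assembly (98.5, -50 bp), dkc-1, which encodes dyskerin (74.8, -307 bp), and nola-3 (72.0, -609 bp). The first 2 had summits in both replicates' own lists. Each of the 4 summits also lay in the promoter window of a neighbouring coding gene: mut-15 beside fib-1, tofu-1 beside ruvb-1, ran-1 beside dkc-1 and C25A1.16 beside nola-3. nol-56, nol-58, snu-13, Y48A6B.3, ruvb-2, dao-5 and nucl-1 had no summit there.

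Under the same rule the share bound was 20.2% of snoRNA genes (16.1 to 24.9%), against a larger share of tRNA genes and a smaller one of miRNA genes. It was 49.7% of 612 tRNA genes (45.6 to 53.7%), 1.92% of 261 miRNA genes (0.625 to 4.41%) and 3.46% of coding genes. Of 129 snRNA genes it was 25.6% (18.3 to 34.0%), and this interval overlaps that of snoRNA genes. In replicate 1's own list the shares were 11.3% of snoRNA genes, 18.0% of tRNA genes and 13.2% of snRNA genes, and in replicate 2's 15.3%, 31.0% and 16.3%. No snoRNA gene lay within 250 bp of a tRNA or snRNA gene, and at 0 of the 70 bound genes was the summit within 250 bp of one. A coding gene start lay within 250 bp of 7 bound and 37 unbound snoRNA genes.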

How the data were processed

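The members, word pairs and lists were chosen with earlier results of these data known. Peaks are the authors' deposited lists on ce11: per replicate and for the series, each ranked and thresholded. The sources used here name neither aligner nor peak caller and give no read depth, so no interval could be set on a signal. Each peak's signal is the authors' deposited value on an unstated scale, the deposited score is a scaled IDR, and the ranked lists add a global IDR, deposited as its −log10. Peaks of the thresholded lists had a −log10 IDR of at least 2, and a control entered them, per the deposited descriptions. The score was not used here.

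From these files, summits were assigned to Ensembl release 115 genes with Python 3.11.15, NumPy 2.4.6 and SciPy 1.17.1. Where a gene had several summits, the nearest was used. Sequences came from the RefSeq genome of WBcel235, whose chromosomes hold all deposited peaks. Shares carry exact 95% binomial (Clopper-Pearson) intervals, which cover counting error only, and classes were compared by two-sided Fisher's exact test at 0.05. The functions were checked on simulated data. Named genes are the 12 of highest signal per class, of which those with something to add are described, the 3 on each side of 250 bp and the 3 unbound genes of best rank. Upstream sequences were printed for the bound genes of highest signal with each pair in each class, chromosome I left aside. Others were named after their values were seen. Repeats are words of 30 bases found more than once in the genome. The list of snoRNP and snoRNA pathway genes held gar-1, which in the worm names an acetylcholine receptor and was left out.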

Additional observations from a re-analysis of the deposited data

How the results depend on the processing

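The odds ratio of nested against other genes was below 1 under all 17 alternatives (0.324 to 0.780). It kept its side of the threshold under 8, among them the conservative list, 100 bp, peak overlap and removal of genes with over 20% repeated words. Removal of neighbours of coding starts was another, at the edge (0.561, 0.305 to 1.02, Fisher's exact p = 0.0475). The odds ratio no longer passed with the stronger part of the list (0.567), 500 bp (0.618), nested genes wholly in an intron (0.780), either strand counted as nested (0.704), or loci merged (0.584). In alternatives chosen after seeing the data it did not pass for genes of 80 bp or less (0.324), over 80 bp (0.766) or with neither pair (0.604). In single replicates it was 0.484 to 0.657, lost in replicate 1's list.

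Bound shares in single replicates were 9.29 to 10.9% for nested genes and 13.5 to 20.2% for others. For genes of 80 bp or less they were 40% nested and 67.7% other, for other genes over 80 bp 15.2%, and with neither pair 9.76% nested and 15.2% other.

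The median summit of nested genes moved to -26.5 bp with 100 bp, 500 bp and peak overlap, to -45.5 bp for genes of 80 bp or less and to -33.0 bp with neither pair. For the others it moved to -40.0 bp with either strand counted as nested, -26.0 bp over 80 bp and -27.0 bp with neither pair. In single replicates it was -33.0 to -22.5 bp nested and -42.0 to -36.0 bp other. Median signals were 55.5 to 79.8 nested and 63.2 to 68.0 other in single replicates, 123 and 118 in the stronger part of the list, 121 and 116 at 80 bp or less, and 93.8 over 80 bp and 97.2 with neither pair for the others. Replicates' lists have their own scales. The cause of these shifts was not tested, except that the stronger part of the list holds higher signals by construction.

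With other spellings the share of genes bound was 67.7 to 82.6% for the box A-like pair (second word GTTCNA, 67.7%) and 43.6 to 47.2% for the second pair. No paired analysis was possible because there is 1 group. The limits are 2 replicates, an unknown depth, control data not analysed here, annotated starts in place of mapped ones, and repeated sequence, which 49 genes hold and which makes up over 20% of the words in 36.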
